A study of Mus musculus with 10 samples.

Results

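The genes described here carry pyruvate into mitochondria, oxidise it and run the citric acid cycle. They comprise the mitochondrial pyruvate carrier, the pyruvate dehydrogenase complex with its kinases and phosphatases, the enzymes of the cycle, pyruvate carboxylase and the malic enzymes, and the malate-aspartate shuttle with glutamate dehydrogenase. The list held 37 genes chosen by name, with earlier results of these data known. A gene counted as measured where a probe set carried its symbol alone, and 36 of the 37 were measured among 19938 genes; Mpc2, a subunit of the pyruvate carrier, was not analysed here. Where a gene had several such probe sets, the one with the highest mean over the 10 arrays stood for it.

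Affymetrix arrays were run on RNA of ventricular cardiomyocytes, the contracting cells of the main chambers, and on RNA of whole hearts. The mice were wild type (WT) or carried a VAChT knockdown (KD), written VAChT KDHOM in the series title. VAChT, the product of Slc18a3, fills synaptic vesicles with acetylcholine. Each genotype had 3 arrays of cardiomyocytes and 2 of whole hearts. All mice were male, C57BL/6 and 3 months old, none had been treated, and RNA of 2 samples was pooled for each array. Nothing in the labels ties the arrays to separate animals beyond this pooling, so a p-value reflects array-to-array spread that may be technical in part. The number of arrays limits the precision. Values are log2 intensities, and a difference is KD minus WT on that scale, so that a difference of -1 would halve the linear intensity.

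Pyruvate made from glucose or lactate enters the mitochondrial matrix through a carrier and is converted by the pyruvate dehydrogenase complex to acetyl-CoA, an irreversible step. Kinases switch the complex off by phosphorylating its E1 subunit and phosphatases switch it on again. The cycle then oxidises acetyl-CoA, whichever fuel it came from, to feed the respiratory chain. The malate-aspartate shuttle brings the electrons of cytosolic NADH into the matrix. Working heart muscle is among the tissues richest in these enzymes and derives much of its acetyl-CoA from fatty acids.

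The arrays were first compared with their labels. Slc18a3 did not separate the genotypes: it was at 6.06, 6.37 and 6.04 in WT and 6.22, 6.52 and 6.21 in KD cardiomyocytes, and at 7.34 and 7.72 in WT and 7.31 and 7.84 in KD hearts. The median over all genes was 6.19 to 6.27 in cardiomyocyte arrays and 7.54 to 7.59 in heart arrays. Slc18a3 was thus near the middle of all genes, and at so low a signal this check cannot decide whether its transcript was reduced. Array medians over all probe sets were 5.82 to 5.93 in cardiomyocytes and 7.25 to 7.31 in hearts. The kinds of sample were therefore apparently normalized separately, and KD was tested against WT within each kind. KD heart 1 stood apart, in that 11 measured thymocyte and T cell markers averaged 3.05 above the WT heart mean in it and 0.08 above in KD heart 2. The recombinase gene Rag1, a marker of developing lymphocytes, was at 11.68 in KD heart 1 and at 6.51 to 6.73 in the other heart arrays. In KD heart 2 the 6 atrial muscle markers averaged 1.21 below the WT mean, and in KD heart 1 they averaged 0.25 below. The cardiomyocyte marker Myh6 was at 13.23 to 13.42 in cardiomyocyte arrays and at 13.12 to 13.39 in heart arrays. The part of other cell types in the results was not tested.

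In whole hearts, 33 of the 36 genes were lower in KD than in WT, against 47.5% of all 19938 genes. The median difference of the 36 was -0.23, which is a linear change of -15%, and that of all genes was 0.01. The KD arrays were both lower than either WT array for 22 of the 36, against 15.4% of all genes. In limma, 16 of the 36 had an unadjusted p under 0.05, all 16 lower in KD, against 2.49% of all genes. That fit shared each gene's spread between heart and cardiomyocyte arrays, so heart standard errors and p-values rest on both. In a fit on the heart arrays alone the count was smaller, as given under the dependence on processing. None of the 36 passed at an adjusted p of 0.05, nor did any other gene (0% of all genes), and the smallest adjusted p among the 36 was 0.95. In cardiomyocytes the same genes centred on 0, with 17 lower and 19 higher in KD, a median of 0.01, and 50.0% of all genes lower. The plot of differences by gene shows both kinds of sample on one scale.

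**Figure D1:**
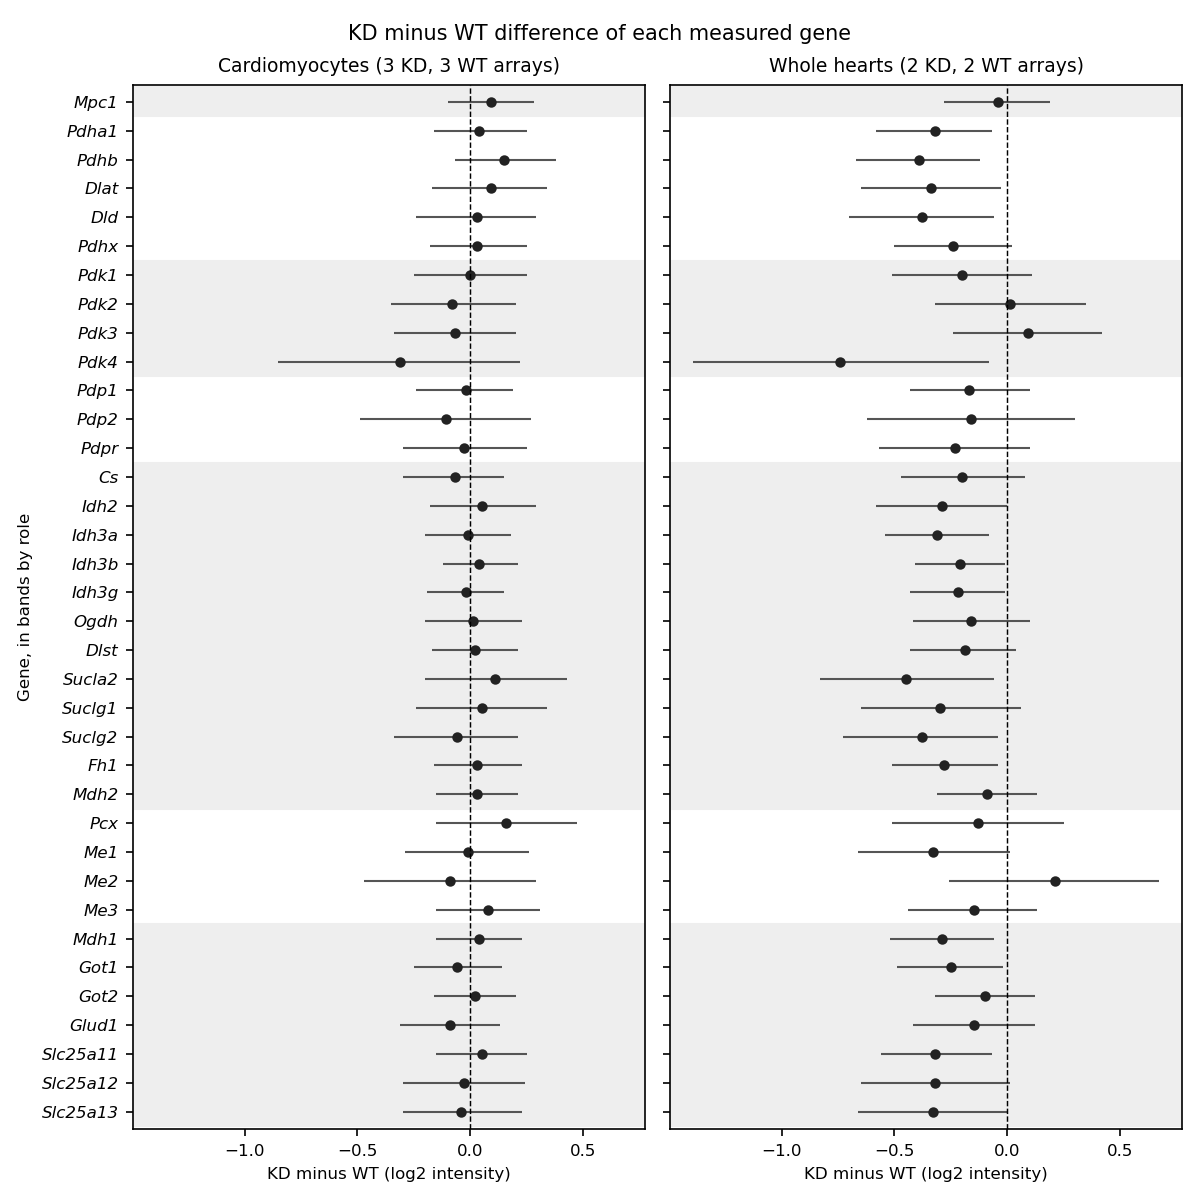
KD minus WT difference of each of the 36 measured genes in cardiomyocytes (left) and whole hearts (right), in log2 intensity. Points are fitted differences, lines 95% confidence intervals from limma, and grey and white bands separate the roles. In hearts 33 points lie left of 0 and 16 intervals exclude 0, whereas in cardiomyocytes every interval includes 0.

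The subunits of the pyruvate dehydrogenase complex had the most negative median among the groups with several genes in hearts, at -0.34, with all 5 lower. For 4 both KD arrays were below the WT arrays without overlap, against 15.4% of all genes. Pdhb, the beta subunit of the E1 enzyme that decarboxylates pyruvate, was at 12.88 and 12.76 in WT hearts and at 12.31 and 12.55 in KD hearts. Both KD arrays were below both WT arrays, although the KD arrays were about as far from each other as from the nearer WT array. The difference was -0.39 ± 0.13 (SE), or 1.31-fold lower (unadjusted p = 0.0084, adjusted p = 0.95 in limma). Pdha1, the alpha subunit of E1 and the target of the kinases, was at 13.21 and 13.10 in WT and at 12.96 and 12.71 in KD hearts. Its arrays did not overlap either, with a difference of -0.32 ± 0.12 (SE) and an unadjusted p of 0.017, and -0.19 without KD heart 2. Dld, the E3 subunit that the complex shares with 2-oxoglutarate dehydrogenase, was at 11.74 and 11.58 in WT and at 11.36 and 11.21 in KD, a difference of -0.38 ± 0.15 (SE, unadjusted p = 0.025). Dlat, the acetyl-transferring E2 core, was at 12.11 and 11.72 in WT and at 11.74 and 11.41 in KD. WT heart 2 lay just below KD heart 1, so that Dlat overlapped although its difference was -0.34. Without WT heart 1 that was -0.15 and without KD heart 2 it was -0.18. Pdhx, which anchors E3 to the core, did not overlap and differed by -0.24, with an interval from -0.50 to 0.02.

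The promoters of a gene of the complex and of a kinase are shown because these had the smallest p and the largest difference among the 36 in hearts. Each run holds the 250 bases before the transcription start in RefSeq (GRCm38.p6), read 5′ to 3′ on the gene's strand, with CpG dinucleotides in capitals. The Pdhb run is chr14:8172993-8173242, minus strand, and the Pdk4 run is chr6:5496279-5496528, minus strand.
Pdhb: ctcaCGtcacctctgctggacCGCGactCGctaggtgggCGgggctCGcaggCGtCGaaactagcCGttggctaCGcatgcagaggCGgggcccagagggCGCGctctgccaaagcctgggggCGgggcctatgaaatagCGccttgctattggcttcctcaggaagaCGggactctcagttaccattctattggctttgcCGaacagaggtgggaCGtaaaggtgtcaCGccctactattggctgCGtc
Pdk4: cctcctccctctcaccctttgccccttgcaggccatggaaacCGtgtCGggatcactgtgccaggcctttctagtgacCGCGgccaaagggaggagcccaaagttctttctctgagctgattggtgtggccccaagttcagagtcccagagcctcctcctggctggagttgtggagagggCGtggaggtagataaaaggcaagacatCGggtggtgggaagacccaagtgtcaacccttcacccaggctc
The Pdhb run held 20 CpG and the Pdk4 run 6. RefSeq promoters were matched by symbol for 34 of the 37 genes (all but Idh3a, Pdp1 and Me2), 44 promoters in all. The median count of CpG in these 250 bases was 17 for the 44 and 6 for all 32851 promoters. Of the 44, 39 were above the median of all, against 46.3% of all promoters, and their range was 2 to 46.

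Of the 4 kinases of the complex 2 were lower and 2 higher in KD hearts. Pdk4, which phosphorylates E1 and is known to be induced by fasting and fatty acids, was at 11.08 and 11.87 in WT hearts and at 10.43 and 11.05 in KD hearts. The genotypes were separated by a narrow margin while the arrays within each differed widely. Its difference of -0.74 ± 0.30 (SE), 1.67-fold lower, was the largest in size among the 36 (unadjusted p = 0.03). It ranged from -1.13 to -0.34 when single arrays were left out, the latter without WT heart 2. The other 3 kinases overlapped between genotypes, with differences of -0.20 for Pdk1 (-0.07 without KD heart 2), 0.01 for Pdk2 and 0.09 for Pdk3. Pdk3 was highest in KD heart 1, at 7.12 against 6.68 to 6.86 in the other hearts, and without that array its difference was -0.13. The sign for Pdk2 also turned with the processing, at -0.02 when arrays were centred on their medians. The phosphatases Pdp1 and Pdp2 and the regulatory subunit Pdpr had differences of -0.17, -0.16 and -0.23, each with an interval that included 0. Without WT heart 1 those of Pdp1 and Pdpr were -0.06 and -0.01, and without KD heart 2 that of Pdp2 was -0.10. Mpc1, the measured subunit of the pyruvate carrier, was at 11.50 and 11.37 in WT and at 11.34 and 11.44 in KD hearts. Its difference of -0.04 was within the spread of either genotype and was 0.07 after quantile normalization.

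All 12 enzymes of the citric acid cycle were lower in KD hearts, with a median of -0.25. For 9 both KD arrays were below the WT arrays without overlap, against 15.4% of all genes. Of the 12, 7 had an unadjusted p under 0.05 in limma, where 2.49% of all genes did and were lower. Idh3a, the catalytic subunit of the NAD-dependent isocitrate dehydrogenase, was at 12.64 and 12.47 in WT and at 12.26 and 12.24 in KD hearts. The KD arrays nearly coincided below both WT arrays, and the difference was -0.31 ± 0.11 (SE, unadjusted p = 0.013). The other subunits of that enzyme, Idh3b and Idh3g, differed by -0.21 and -0.22, both without overlap. Sucla2, the subunit that makes succinyl-CoA synthetase specific for ADP, was at 12.08 and 11.61 in WT and at 11.61 and 11.18 in KD hearts. Here WT heart 2 was as low as KD heart 1, and the difference of -0.45 ± 0.18 (SE, unadjusted p = 0.026) went from -0.68 to -0.21 when single arrays were left out, the latter without WT heart 1. Suclg2, the GTP-forming counterpart, differed by -0.38 without overlap, and Suclg1, the subunit common to both forms, by -0.30 with overlap, and by -0.07 without WT heart 1.

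Fh1, fumarase, was at 12.04 and 12.08 in WT and at 11.73 and 11.83 in KD hearts, a difference of -0.28 ± 0.11 (SE, unadjusted p = 0.024). The genotypes were well apart relative to the arrays within them. Idh2, the NADP-dependent mitochondrial isocitrate dehydrogenase, differed by -0.29 without overlap (unadjusted p = 0.047), but by -0.15 without WT heart 1 and -0.17 without KD heart 2. Cs, citrate synthase, which opens the cycle, was at 12.84 and 12.76 in WT and at 12.60 and 12.60 in KD, a difference of -0.20 with an interval from -0.47 to 0.08. Ogdh and Dlst, the E1 and E2 enzymes of 2-oxoglutarate dehydrogenase, differed by -0.16 and -0.19, and both intervals included 0. Without WT heart 1 the Ogdh difference was -0.03. Mdh2, mitochondrial malate dehydrogenase, had the smallest difference of the cycle, -0.09, which was 0.01 after quantile normalization and 0.05 after removal of the trend on intensity.

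The 7 genes of the malate-aspartate shuttle and glutamate dehydrogenase were all lower in KD hearts, with a median of -0.29. For 6 both KD arrays were below the WT arrays without overlap, against 15.4% of all genes. Of the 7, 4 had an unadjusted p under 0.05 in limma, where 2.49% of all genes did and were lower. Slc25a11, the exchanger of malate for 2-oxoglutarate, was at 12.52 and 12.24 in WT and at 12.10 and 12.03 in KD hearts. Both KD arrays were below the lower WT array, with a difference of -0.32 ± 0.11 (SE, unadjusted p = 0.014) that was -0.18 without WT heart 1. Mdh1, cytosolic malate dehydrogenase, was at 13.17 and 13.00 in WT and at 12.90 and 12.69 in KD, a difference of -0.29 ± 0.11 (SE, unadjusted p = 0.017) without overlap, and of -0.19 without KD heart 2. The aspartate-glutamate carriers Slc25a12 and Slc25a13 differed by -0.32 and -0.33. For both of them WT heart 1 was far above WT heart 2, and the Slc25a12 arrays overlapped. Without WT heart 1 their differences were -0.08 and -0.09. Of the aspartate aminotransferases, the cytosolic Got1 differed by -0.25 without overlap. The mitochondrial Got2 differed by -0.10, by -0.02 without WT heart 1, and by 0.02 after quantile normalization. Glud1, which deaminates glutamate to 2-oxoglutarate, differed by -0.15 with an interval from -0.42 to 0.12, and by -0.09 without WT heart 1.

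Among the enzymes that refill the cycle or draw malate from it, 3 of 4 were lower in KD hearts and none had an unadjusted p under 0.05. Me1, the cytosolic malic enzyme that supplies NADPH, differed by -0.33 with overlap, by -0.12 without WT heart 1, and its second probe set by -0.42. Pcx, pyruvate carboxylase, differed by -0.13, and by 0.08 without WT heart 1. Me3, a mitochondrial malic enzyme, differed by -0.15, and by -0.09 without WT heart 1. Me2, the other mitochondrial malic enzyme, was the exception, at 8.31 and 8.12 in WT and 8.83 and 8.02 in KD hearts. Only KD heart 1, the array with the high thymocyte and T cell markers, was above WT, and without it the difference of 0.21 became -0.20. The plot of the heart arrays shows the 8 genes with the smallest p.

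**Figure D2:**
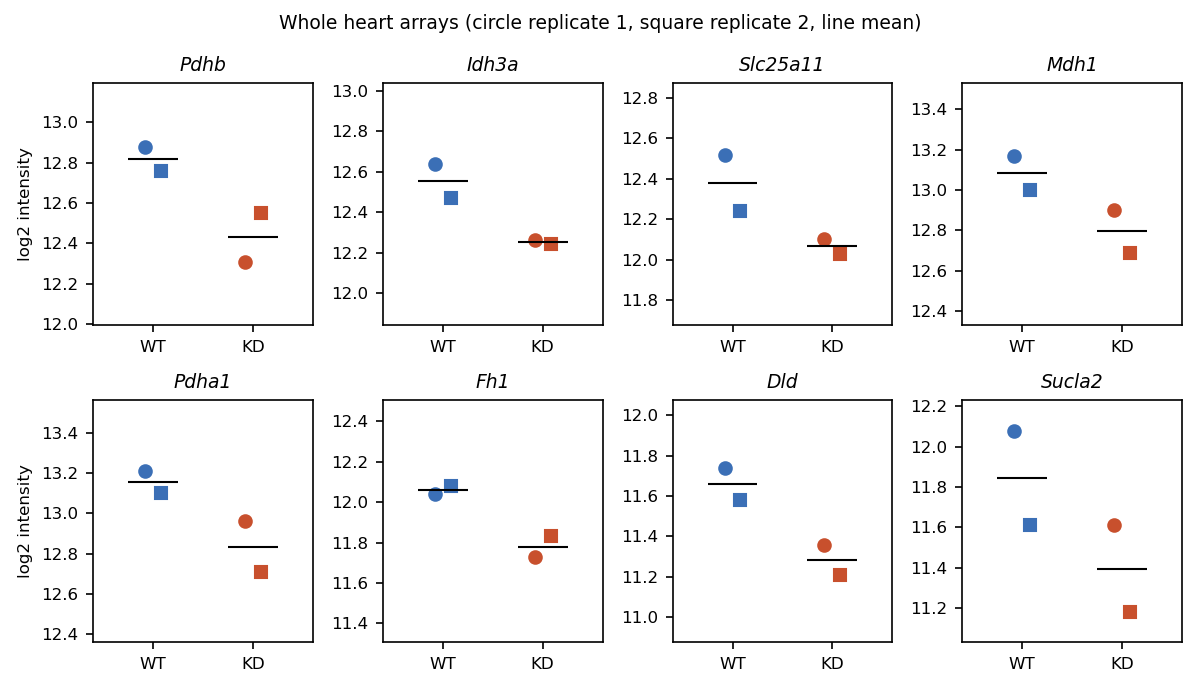
Log2 intensity in each whole heart array of the 8 genes with the smallest unadjusted p among the 36, 2 WT arrays in blue and 2 KD arrays in orange, with the group mean as a line. Every panel spans the same width on the log2 scale. For 7 of the 8 both KD arrays lie below both WT arrays; for Sucla2 KD heart 1 and WT heart 2 are level.

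The lower values were present in both KD hearts. The median deviation of the 36 genes from the WT heart mean was 0.08 and -0.08 in the WT arrays, -0.19 in KD heart 1 and -0.25 in KD heart 2. In each KD array 34 of the 36 were below the WT mean, and 32 were below it in both. Of all 19938 genes, 11803 were below it in KD heart 1 and 8246 in KD heart 2. The count over all genes for both arrays together was not taken. KD heart 1 lay below both WT arrays for 24 of the 36, or 66.7%, where 42.1% of all genes did so. KD heart 2 did for 34, or 94.4%, where 30.5% of all genes did. The WT arrays also differed from each other, with WT heart 1 above WT heart 2 for 28 of the 36, against 9567 of all 19938 genes. KD heart 1 was likewise above KD heart 2 for 24 of the 36, with no count over all genes taken. The gap between the WT arrays exceeded the KD minus WT difference in size for 16 of the 36. The size of single differences depended on single arrays: for 25 of the 36, leaving out 1 heart array moved the difference by over 1.5 times or turned its sign. The other 11 were Pdhb, Dld, Pdhx, Cs, the 3 Idh3 subunits, Dlst, Suclg2, Fh1 and Got1. Without WT heart 1 the median difference was -0.15 with 2 of 36 at an unadjusted p under 0.05, where 2.25% of all genes were so in either direction. Without KD heart 2 it was -0.19 with 5, against 6.69% of all genes, and without KD heart 1 it was -0.25 with 10, against 10% of all genes. Without WT heart 2 it was -0.30 with 15, against 5.26%.

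Brightness moved with the result. Of the 8847 genes kept by a filter on dim genes, 60.1% were lower in KD hearts, and of the 35 genes of the set that it kept 33 were. After a smooth trend of the differences on mean intensity was removed, 30 of the 36 remained below 0 against 51.6% of all genes. The median was then -0.15 and none had an unadjusted p under 0.05, where 3.98% of all genes did. The complex was still lower for 5 of 5 genes, with a median of -0.22, the cycle for 11 of 12 with -0.12, and the shuttle for 6 of 7 with -0.15. Centring arrays on their medians gave 34 of 36 lower, against 57.6% of all genes. The part of intensity in the lower values was not tested beyond this.

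Marker genes of several cell types were also lower in KD hearts. All 12 cardiomyocyte markers, sarcomere and calcium-handling genes such as Myh6 and Ryr2, were lower, with a median of -0.11. Their median deviation was -0.16 in KD heart 1 and -0.07 in KD heart 2. In KD heart 2 only 8 of the 12 were below the WT mean, and Myh6 was at 13.39 there against 13.33 and 13.30 in WT. Relative to these markers the 36 genes stood at -0.03 in KD heart 1 and at -0.19 in KD heart 2. The WT hearts stood at 0.05 and -0.05, so on this measure KD heart 1 lay between them and only KD heart 2 was lower. All 6 fibroblast markers (median -0.29) and all 6 endothelial markers (median -0.21) were lower as well, and the 3 measured red cell markers were higher (median 0.55). All 6 adipocyte (median -0.22) and all 5 smooth muscle markers (median -0.14) were lower too. The most negative median of these lists was that of the atrial muscle markers, -0.76, with all 6 lower. Their mean deviation was -0.25 in KD heart 1 and -1.21 in KD heart 2. All 11 thymocyte and T cell markers were higher (median 1.6), with mean deviations of 3.05 in KD heart 1 and 0.08 in KD heart 2. Macrophage markers were higher for 6 of 7 (median 0.07), and nerve and lung markers had medians of 0.03 and 0.01. In whole tissue, fewer cells of a type and less RNA per cell cannot be told apart. The part of these cell types in the result was not tested.

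**Figure D3:**
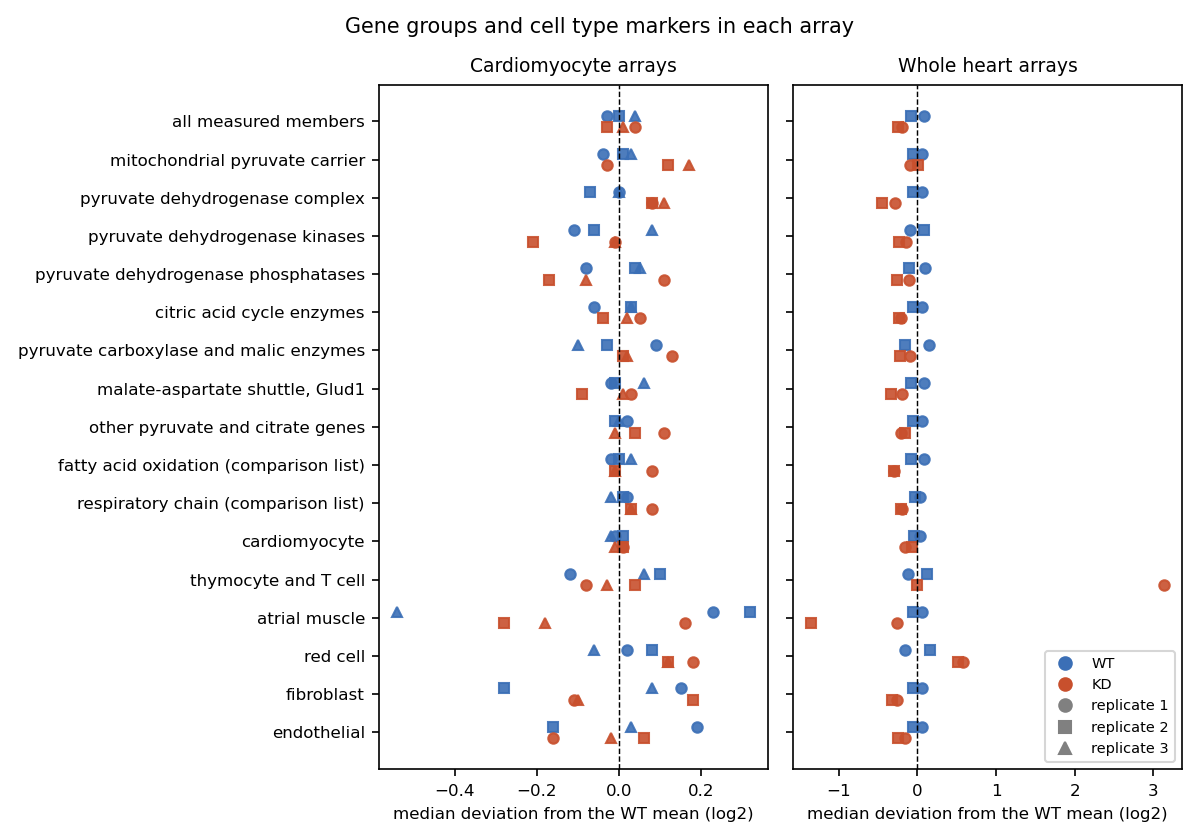
Median deviation from the WT mean of the same kind of sample, in log2 units, for the 36 genes, each role, comparison lists and cell type markers, with 1 symbol per array (blue WT, orange KD, shape for the replicate). The 2 panels have different scales. In hearts the roles lie left of 0 in both KD arrays except for the carrier, and the thymocyte and T cell markers of KD heart 1 lie far to the right.

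Neighbouring genes of the same metabolism had similar values. They were listed by name, but with earlier results of these data known. Of 43 such genes 39 were measured, and 37 of the 39 were lower in KD hearts, with a median of -0.20. Of the 39, 9 had an unadjusted p under 0.05, all lower, against 2.49% of all genes, and none passed adjustment. The smallest p belonged to Acat1, the mitochondrial thiolase of ketone and isoleucine breakdown, at 11.94 and 11.81 in WT and 11.48 and 11.22 in KD hearts, a difference of -0.52 ± 0.12 (SE, unadjusted p = 0.00089, adjusted p = 0.871 in limma). Adhfe1, a hydroxyacid-oxoacid transhydrogenase, differed by -0.65. Oxct1, which activates ketone bodies for the cycle, differed by -0.49, and Sdhd, a membrane anchor of succinate dehydrogenase, by -0.41. Of 17 fatty acid oxidation genes all were lower (median -0.30), as were 17 of 19 respiratory chain genes (median -0.17). Negative medians in hearts were thus also found in these lists.

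In cardiomyocytes the differences of the 36 genes ran from -0.31 to 0.16. None had an unadjusted p under 0.05, against 2.10% of all genes, and none passed adjustment (0% of all genes). For none of the 36 did the KD arrays lie wholly above or below the WT arrays, against 6.21% of all genes. The median interval, unadjusted for the number of genes, reached 0.23 to either side, or 1.17-fold. A smaller difference was thus within the interval of a typical gene of the set. Larger differences also failed the adjusted p, since those of all genes ran from -1.14 to 1.22 and none passed. For 16 of the 36 the cardiomyocyte interval contained the difference seen in hearts. The smallest p was that of Pdhb, at 9.28, 9.05 and 9.04 in WT and at 9.25, 9.31 and 9.26 in KD, a difference of 0.15 ± 0.10 (SE, unadjusted p = 0.16). WT replicate 1 lay among the KD arrays. All 5 subunits of the complex had small positive differences, with a median of 0.04, among them Dlat at 10.78, 10.82 and 10.74 in WT and 10.86, 10.80 and 10.95 in KD.

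Pdk4 had the most negative difference in cardiomyocytes too, -0.31 ± 0.25 (SE, unadjusted p = 0.23), from 12.17, 11.94 and 12.73 in WT to 12.20, 11.58 and 12.11 in KD. The highest WT and the lowest KD array set that value, and without WT replicate 3 it was -0.09. Pcx was at 7.96, 7.87 and 7.69 in WT and at 8.24, 7.91 and 7.85 in KD, a difference of 0.16. Sucla2 was at 11.99, 11.59 and 11.81 in WT and at 11.90, 11.93 and 11.88 in KD, a difference of 0.11. In both genes the genotypes overlapped. Mpc1 was at 12.22, 12.28 and 12.30 in WT and at 12.24, 12.39 and 12.44 in KD. Me3 was at 9.08, 9.09 and 8.87 in WT and at 9.23, 8.97 and 9.07 in KD. Glud1 was at 9.51, 9.28 and 9.27 in WT and at 9.35, 9.25 and 9.18 in KD. Their differences were 0.09, 0.08 and -0.09, each inside its interval around 0. The neighbouring genes were likewise mixed, with 15 lower and 24 higher of 39.

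The difference between the KD effects, cardiomyocytes minus hearts, was tested as an interaction. It was positive for 33 of the 36 genes, against 48.8% of all genes, with a median of 0.26. Of the 36, 8 had a positive difference at an unadjusted p under 0.05, against 1.74% of all genes, and none passed adjustment (0% of all genes; adjusted p = 0.999 for each). Pdhb had the smallest p, with a difference of 0.55 ± 0.16 (SE, unadjusted p = 0.0054), from 0.15 in cardiomyocytes and -0.39 in hearts. The other 7 were Slc25a11 and Pdha1 at 0.37, Sucla2 at 0.56 ± 0.23, Mdh1 at 0.33, Dlat at 0.43 ± 0.19, Fh1 at 0.31 and Idh3a at 0.30. In cardiomyocytes Pdha1 was at 11.30, 11.39 and 11.49 in WT and at 11.48, 11.47 and 11.37 in KD. Mdh1 was there at 12.71, 12.70 and 12.79 in WT and at 12.79, 12.73 and 12.81 in KD. Neither gene's genotypes were apart. Slc25a11 was at 12.47, 12.47 and 12.49 in WT and at 12.61, 12.48 and 12.49 in KD. Its WT replicate 3 lay level with a KD array. Fh1 was at 11.11, 11.07 and 11.19 in WT and at 11.25, 11.08 and 11.15 in KD, and Idh3a at 11.59, 11.75 and 11.72 in WT and at 11.65, 11.64 and 11.75 in KD. Both overlapped as well. The kinds of sample also differed in labelling, since an Ambion manual is named beside that of Affymetrix for cardiomyocytes only. An effect of labelling on the difference cannot be told apart from the kind of sample.

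**Figure D4:**
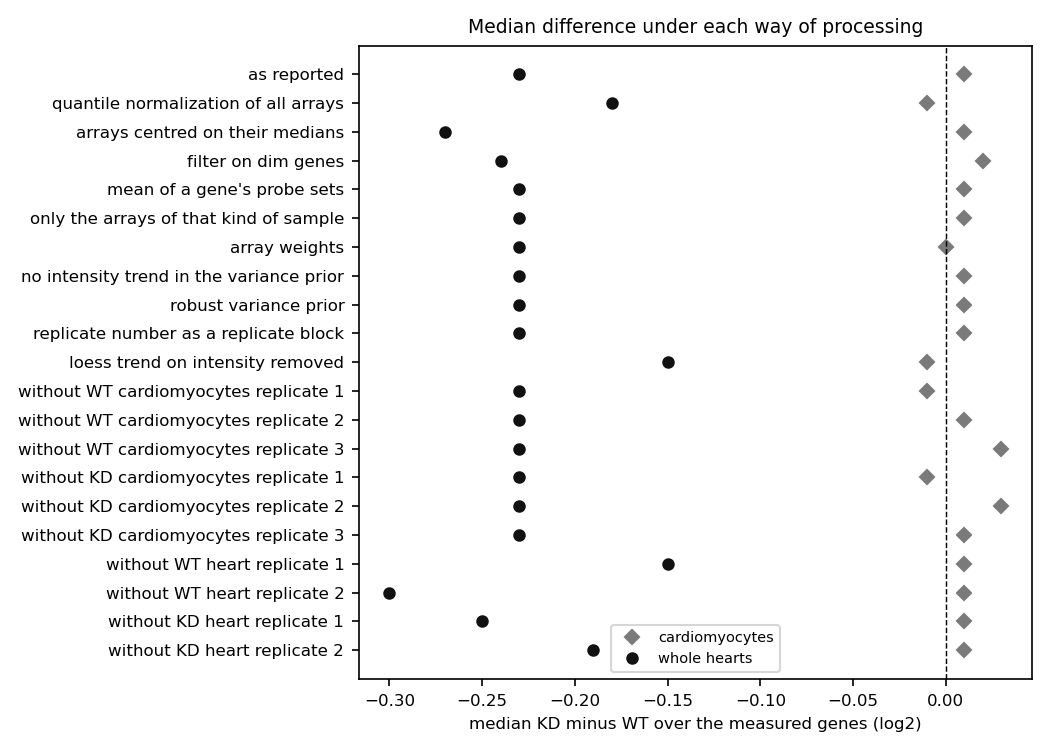
Median KD minus WT difference over the measured genes, in log2 units, as reported and under each alternative, for cardiomyocytes (diamonds) and whole hearts (circles). The heart median stays between -0.30 and -0.15 in every setting, and the cardiomyocyte median between -0.01 and 0.03.

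Levels of a gene were set side by side between cardiomyocytes and hearts under 3 scalings, as a description without a test. The median of all genes was shifted by -1.21 on the deposited scale, 0.12 after centring and 0.01 after quantile normalization. In all 3 scalings 12 of the 36 were higher in cardiomyocytes, among them Mpc1, Pdk4, Idh2 and Got2. Another 6, Pdha1, Pdhb, Pdk3, Suclg2, Me2 and Glud1, were lower in all 3, and 18 changed direction with the scaling. For Pdhb the difference, cardiomyocytes minus hearts, was -3.42, -2.09 and -3.03 in the 3 scalings, and for Got2 it was 1.11, 2.45 and 1.40. Labelling and kind of sample cannot be told apart here either.

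Promoter sequence was searched on both strands, over 250 bases before to 50 after the start, for letters of sites bound by regulators of mitochondrial genes. The extended ERR site TNAAGGTCA, which occurred in 1.28% of all promoters, and the palindromic NRF1 site GCGCATGCGC, in 0.971%, were found in none of the 44. The cyclic AMP response element TGACGTCA occurred in 1.79% of all promoters and in 5 of the 44, which belong to Mdh2, Ogdh and Pdpr. The 3 Ogdh promoters overlap and hold the same match. The YY1 site AAGATGGCG occurred in 1.40% of all and in 1 of the 44, that of Idh3g. The stretches around 3 of these matches are printed with the match in capitals and 25 bases to either side: Mdh2 at chr5:135778497-135778554 (plus strand), Ogdh at chr11:6291521-6291578 (plus strand) and Idh3g at chrX:73786994-73787052 (minus strand).
Mdh2: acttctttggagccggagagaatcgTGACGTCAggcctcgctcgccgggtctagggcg
Ogdh: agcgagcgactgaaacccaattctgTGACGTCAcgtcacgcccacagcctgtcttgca
Idh3g: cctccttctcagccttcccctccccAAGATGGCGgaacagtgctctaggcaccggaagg
A match says only that the letters are present. The heart differences of Mdh2, Ogdh and Pdpr were -0.09, -0.16 and -0.23, and that of Idh3g was -0.22.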

How the data were processed

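The authors deposited log2 intensities for 35556 probe sets on 10 arrays. They had used Partek and RMA (background correction, normalization across arrays and a summary per probe set), per the submitters' processing notes, with versions not given in the sources used. RMA compresses differences of dim probes. Per the labels' protocols, a Bio-Rad kit served for RNA extraction.

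Genes were named from the platform annotation: 21789 probe sets carried 1 symbol and were used, 1621 carried several, and 12146 had no entry. The 19938 genes were fitted in limma 3.58.1 (R 4.3.3) with 4 group means and eBayes with an intensity trend. The 4 groups shared 1 estimate of the spread per gene. Two-sided p-values were adjusted over all genes (Benjamini-Hochberg, threshold 0.05). Permuting arrays cannot give a two-sided p below 0.1 for 3 against 3, or 0.333 for 2 against 2.

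The members, lists and motifs were chosen with earlier results of these data known. All 36 measured genes are named. Values of every array are given for the 8 with the smallest p in each comparison, and for a few others that those values touch. Of neighbouring genes up to 4 per list are named, besides Ogdhl and Acly. Alternatives were other scalings, a filter on dim genes, averaged probe sets, fits on a single kind of sample, array weights, other variance priors, a replicate block, removal of a loess trend (span 0.3), and leaving out each array. The code was tested on simulated data.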

Additional observations from a re-analysis of the deposited data

Results flagged for a closer look

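For 4 genes every KD array was above the WT mean in cardiomyocytes and below it in hearts. They were picked by this pattern and by an unadjusted p under 0.05 in limma for the difference between the effects. In cardiomyocytes the KD arrays were above the WT mean by 0.13, 0.19 and 0.14 for Pdhb and 0.08, 0.02 and 0.17 for Dlat. For Sucla2 these margins were 0.11, 0.14 and 0.09, and for Slc25a11 0.13, 0.01 and 0.02. There the arrays of all 4 genes overlapped between genotypes. The differences, cardiomyocytes minus hearts on the log2 scale, were 0.55 for Pdhb, 0.43 for Dlat, 0.56 for Sucla2 and 0.37 for Slc25a11. The adjusted p was 0.999 for each, so none passed the correction over 19938 genes. When single arrays were left out they ran from 0.43 to 0.67 for Pdhb, 0.23 to 0.63 for Dlat, 0.32 to 0.80 for Sucla2 and 0.23 to 0.51 for Slc25a11. The lowest values of the last 3 came without WT heart 1 and that of Pdhb without KD heart 1. In all, 7 of the 36 measured genes had every KD array above the WT mean in cardiomyocytes and below it in hearts, where 4.82% of all 19938 genes did. The other 3 were Idh3b, Pcx and Got2.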

How the results depend on the processing

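No member passed an adjusted p of 0.05 in any of 20 alternatives, and in cardiomyocytes the smallest adjusted p of a member was 0.999. Genes outside the set did pass in some alternatives. They did so in hearts with the replicate number as a block. They also did in hearts and for the difference between the effects where a heart array stood alone in its group. In hearts 29 of 36 members were negative in every setting. The heart count at an unadjusted p under 0.05, 16, was 2 after quantile normalization (5.93% of all genes in either direction), 3 in a fit on hearts alone (2.66%), 10 with array weights (3.99%) and 0 after loess removal (3.98%), and 2 to 15 without single arrays. The heart median of -0.23 was -0.18 after quantile normalization, -0.15 after loess removal and -0.30 to -0.15 without single arrays. In cardiomyocytes the count of 0 was 0 to 1 without single arrays, and the 17 negative members were 10 to 20. For the difference between the effects, the count of 8 was 1 after quantile normalization (4.12%), 1 after loess removal (2.88%) and 1 to 14 without single arrays. Its 3 negative members were 8, 8 and 1 to 4, and its median was 0.16 after loess removal and 0.14 to 0.30 without single arrays. Heart differences that changed sign were those of Mpc1, Mdh2 and Got2, at 0.07, 0.01 and 0.02 after quantile normalization and 0.08, 0.05 and 0.03 after loess removal, and Pdk2, at -0.02 after centring. Without single arrays they ran from -0.10 to 0.02 for Mpc1, -0.22 to 0.24 for Pdk2, -0.34 to 0.08 for Pcx, -0.13 to 0.31 for Pdk3 and -0.20 to 0.61 for Me2. The cause of these changes was not tested.

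Same-numbered WT and KD arrays correlated in their deviations at 0.15, 0.13 and -0.05 in cardiomyocytes and 0.23 in hearts, so the numbers were not taken to pair the arrays. With the replicate number as a block, 1 member in cardiomyocytes (3.01% of all genes in either direction), 19 in hearts (6.61%) and 10 for the difference (5.13%) had an unadjusted p under 0.05. An array left alone in its group was assumed to vary like the others.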

Other observations

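Ogdhl, a relative of the 2-oxoglutarate dehydrogenase gene Ogdh, varied between replicates far more than any of the neighbouring enzymes named above. It was at 9.17 in WT cardiomyocyte replicate 1 and at 6.31 and 6.40 in the other WT cardiomyocyte arrays, with 6.19, 6.11 and 6.20 in KD. In hearts it was at 9.28 and 7.33 in WT and at 8.74 and 7.56 in KD, high in replicate 1 of both genotypes. Acly, of the same list, was also higher there, at 9.54 and 8.41 in WT and 9.36 and 8.1 in KD hearts. The cardiomyocyte difference of Ogdhl, -1.12 ± 0.65 (SE, unadjusted p = 0.11 in limma), rested on a single WT array. Ogdh itself ran from 12.45 to 12.69 over the 6 cardiomyocyte arrays. Atrial muscle markers also varied among the WT cardiomyocyte arrays, with mean deviations of 0.39, 0.54 and -0.92 in replicates 1, 2 and 3. A part of atrial muscle in the Ogdhl values was not tested.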
